A study of Homo sapiens with 24 samples.

Results

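Small nucleolar RNAs (snoRNAs) guide the chemical modification of ribosomal RNA, and most of those in human cells are cut from introns of longer host genes. The genes described here are the long noncoding hosts named SNHG followed by a number, together with GAS5. Of the 28277 genes listed by symbol in both count tables, 29 fit that rule. SNHG27 had 0 counts in all 24 libraries, and the other 28 had enough counts to be tested in both tables.

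RNA-seq was performed on PEO1 and PEO4, a pair of human ovarian adenocarcinoma cell lines derived from 1 patient at times before (PEO1) and after (PEO4) chemotherapy stopped working. PEO1 A and PEO4 A, each untreated, form the table of 6 libraries. The labels give the genotype of both as WT, while the series' design text marks PEO1 A as BRCA2-. PEO1 B, a BRCA2+ derivative of PEO1 that regained the gene by spontaneous reversion, and PEO4 B, labelled WT, form the table of 18 libraries. Both B lines were left untreated or were incubated for 2 h or 6 h with 5 µM pyridostatin (PDS), a small molecule that binds G-quadruplexes. Each of the 8 conditions has 3 libraries. The design text calls these biological replicates, but nothing says whether they were separate cultures, so a p-value measures only the spread between libraries.

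A host transcript is spliced, its introns release the snoRNAs, and its exons are left as a spliced noncoding RNA. Many such exonic RNAs start with a tract of pyrimidines, as ribosomal protein mRNAs do, engage ribosomes over short open reading frames and are then degraded by nonsense-mediated decay (NMD). Their level therefore follows transcription, growth signalling to ribosomes and decay at once. GAS5, named after its build-up in growth-arrested cells, is the best known example, and poly(A)-enriched RNA-seq counts the exonic RNA rather than the mature snoRNA.

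The start of transcription is where the shared pyrimidine tract lies. RefSeq promoter sequences (GRCh38.p14, 250 bases before to 50 bases after the annotated start) were found for 25 of the 29 genes. The letters CTTTT, searched on the gene's strand within 20 bases of the start, occurred in 7 of these 25 (28%), in 14 of 58 ribosomal protein promoters (24.1%) and in 4.74% of all 27305 promoters in the table. The 7 stretches of 30 bases are shown because these genes include 3 of the most counted hosts, and capitals mark CTTTT.
SNHG5, chr6:85678719-85678748, minus strand: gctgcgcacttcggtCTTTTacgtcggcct
SNHG16, chr17:76557749-76557778, plus strand: cgcaggggcggtctcgcgttCTTTTcgagg
SNHG19, chr16:2155344-2155373, minus strand: ctcgcccgcccctgtCTTTTcggggtcgag
SNHG21, chr15:82750545-82750574, plus strand: CTTTTccgccggaaagagagtggatttact
SNHG26, chr7:22854225-22854254, plus strand: cCTTTTaaacttgatctccgcagtgccctc
SNHG29, chr17:16438972-16439001, plus strand: cccctcCTTTTgtgaggattgggatattcc
SNHG32, chr6:31834901-31834930, plus strand: ctcgccattttagttCTTTTtgcgaagtgg
In SNHG5, SNHG19 and SNHG32 the C of CTTTT is the annotated first base. PDS binds G-quadruplexes, and 4 runs of GGG separated by 1 to 7 bases, searched on both strands of the 300 bases, occurred in 5 of the 25 host promoters (20%) and in 24.1% of all promoters. A match describes letters and is not a binding site.

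Counts on genes summed to between 32528913 and 63882077 in the A libraries, to between 18699929 and 22375644 in the untreated B libraries and to between 33260167 and 43713947 in the treated B libraries. The share of counts on rRNA genes was 0.217% to 0.474% in untreated B libraries and 0.0163% to 0.0369% in treated ones. Depth and rRNA share thus move with treatment in both B lines, and their part in the results below was not tested. In PEO4 A, replicate 1 stood apart, where the 29 genes together held 1456 CPM (counts per 1000000 counts) of the library total, against 995 and 1070 CPM in its replicates. All 7 epithelial markers (PAX8, WT1, EPCAM, KRT7, KRT8, KRT18 and MUC16) were at 42.6 CPM or more in every library. Their sum in PEO4 B was 6106 to 8129 CPM untreated, 4990 to 5394 CPM at 2 h, when 4 of the 7 fell and 2 rose, and 6435 to 6590 CPM at 6 h. Of the leukocyte markers reported here, CD3E was at 0 throughout, PTPRC and LYZ were at most 0.274 CPM and CD14 reached 6.12 CPM. In PEO4 B the log2 fold change of CD14 was 1.57 ± 0.17 at 2 h (adjusted p = 1.7e-08, edgeR) and 0.01 ± 0.19 at 6 h (adjusted p = 0.96). In PEO4 B untreated, at 2 h and at 6 h, the 5 fibroblast markers, led by COL1A1, summed to 31.3 to 33.9, 8.18 to 12.1 and 3.16 to 4.31 CPM, and to between 2.61 and 7.78 CPM in PEO1 B. The 3 endothelial markers, PECAM1, VWF and CDH5, summed to 1.39 to 2.96, 0.394 to 0.758 and 0.0586 to 0.183 CPM, and both that were tested fell past 2-fold at each time (medians -1.85 and -3.88). In the A lines the order was the other way, with the 5 fibroblast markers at 32.6 to 36.3 CPM in PEO1 A and 8.39 to 13.2 CPM in PEO4 A. The part of the marker genes in the responses of PEO4 B and in the line differences was not tested.

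The tables were counted differently. Genes of microRNAs that lie inside coding exons on the same strand held 17.6 CPM in the A table and 867 CPM in the B table, and those inside exons on the opposite strand held 0.649 and 305 CPM. In the B table, therefore, reads that overlap more than 1 gene reached each of them, and levels are not compared between tables. On their exon bases, 23 hosts share sequence with another gene of the same strand, mostly their own snoRNAs, and 13 with a gene of the opposite strand. Counts of SNHG6 (58.9% of exon bases opposite MCMDC2), SNHG8 (37.6% opposite PRSS12) and SNHG28 (exon bases shared with VSIG8 and, on the opposite strand, SLAMF8) are uncertain for this reason.

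SNHG5, SNHG16 and SNHG29 took the most counts in both tables. SNHG5 hosts SNORD50A and SNORD50B, SNHG16 hosts the SNORD1 genes, and SNHG29 hosts SNORD49A, SNORD49B and SNORD65. Together they held between 48.1% and 58.0% of all counts on the 29 genes in the 8 conditions, a share that reflects transcript length as well as level. GAS5 held 4.99% to 7.80%. In RefSeq on GRCh38.p14, where these genes are annotated as lncRNAs, GAS5 lies at chr1:173863901-173869045 (minus strand), SNHG1 at chr11:62851978-62855885 (minus), SNHG5 at chr6:85677007-85678733 (minus), SNHG16 at chr17:76557764-76565348 (plus) and SNHG29 at chr17:16438987-16470648 (plus). Further down by counts, SNHG8 lies at chr4:118278762-118279823 (plus), SNHG9 at chr16:1964996-1965504 (plus), SNHG20 at chr17:77088643-77094986 (plus), SNHG28 at chr1:159834478-159855037 (minus), SNHG30 at chr17:35568114-35574313 (plus) and SNHG32 at chr6:31834916-31839761 (plus). At the other end, SNHG21, SNHG26, SNHG31 and SNHG32 did not exceed 2.10 CPM in any library.

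The first question was how PEO4, the line from after resistance, differs from PEO1 without treatment. Among the hosts, SNHG16 and SNHG20 were higher in PEO4 and SNHG9 was lower, in both tables, while GAS5 passed the test in the B pair and its larger but more variable difference in the A pair did not. Changes are log2 fold changes ± standard error from the quasi-likelihood fit of edgeR, and each p is adjusted by the method of Benjamini and Hochberg over every gene tested in a table. "Rose" and "fell" are used at an adjusted p under 0.05. In bulk RNA a change in the number of cells of a kind and a change in RNA per cell cannot be told apart.

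In the A pair 7 hosts were higher and 5 lower in PEO4, against 30.1% and 31.6% of the 15882 genes tested. Past 2-fold these counts were 4 (SNHG16, SNHG20, SNHG30 and SNHG31) and 1 (SNHG9), against 12.6% and 13.1% of genes. The median over the 28 hosts was 0.22 and over all genes -0.01. In the B pair 10 were higher and 4 lower, against 34% and 34.6% of 17020 genes, and past 2-fold 2 (SNHG6 and SNHG28) and 1 (SNHG9), against 12.2% and 12.6%. The median was 0.12 over the hosts and 0.00 over all genes. In both tables the share of hosts past the test was below that of all genes in either direction, except for those higher in PEO4 B, 35.7% of the 28.

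The level of SNHG16 was 161, 148 and 144 CPM in PEO1 A and 382, 263 and 263 CPM in PEO4 A. In untreated B libraries it was 166, 147 and 130.1 CPM in PEO1 and 249.6, 252 and 255 CPM in PEO4. The lines did not overlap in either table. The log2 difference was 1.004 ± 0.14 in A (adjusted p = 0.00011, edgeR) and 0.77 ± 0.07 in B (adjusted p = 2.6e-10). Without PEO4 A replicate 1 the value in A was 0.81.

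SNHG20, the host of the small Cajal body RNA gene SCARNA16, measured 2.80, 4.94 and 4.32 CPM in PEO1 A and 9.20, 7.12 and 7.96 CPM in PEO4 A. All 3 PEO4 A libraries lay above the PEO1 A libraries. The log2 difference was 1.02 ± 0.21 (adjusted p = 0.00088, edgeR), and in B it was 0.79 ± 0.09 (adjusted p = 2.4e-08). Without PEO4 A replicate 1, SNHG16 and SNHG20 no longer passed 2-fold in A but kept an adjusted p under 0.05. SNHG20 shares exon bases with SEC14L1.

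SNHG30, which hosts SNORD7, was 1.78, 2.48 and 2.82 CPM in PEO1 A and 6.16, 5.39 and 4.90 CPM in PEO4 A, without overlap. Its log2 difference was 1.22 ± 0.21 in A (adjusted p = 0.00025, edgeR) and 0.47 ± 0.13 in B (adjusted p = 0.0034). SNHG31, a low gene named here after its values were seen, had the largest value in A, 3.44 ± 0.50, on 3 to 12 counts per PEO1 A library and 37 to 86 per PEO4 A library.

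SNHG9, a short host of SNORA78, went the other way. It was 2.03, 2.40 and 2.80 CPM in PEO1 A and 0.909, 1.13 and 0.551 CPM in PEO4 A, so that each PEO4 A library lay below each PEO1 A library. The log2 difference was -1.47 ± 0.30 in A (adjusted p = 0.00095, edgeR) and -1.16 ± 0.35 in B (adjusted p = 0.0049), where 1 PEO1 library overlapped PEO4.

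SNHG6, the host of SNORD87, was 25.2, 25.2 and 25.8 CPM in untreated PEO1 B and 52.8, 53.0 and 62.4 CPM in untreated PEO4 B. This was the host with the smallest adjusted p between the B lines (2.1e-12, edgeR), with a log2 difference of 1.14 ± 0.08. In A it was 0.44 ± 0.13 (adjusted p = 0.016), a value that was 0.26 without PEO4 A replicate 1 and that lost the call without PEO1 A replicate 2 (0.38, adjusted p = 0.061, edgeR).

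GAS5 measured 74.5, 56.3 and 65.4 CPM in PEO1 A and 126, 71.2 and 76.7 CPM in PEO4 A. The groups overlapped, and the difference of 0.48 ± 0.24 did not pass the test (adjusted p = 0.13, edgeR). In untreated B libraries it was 58.7, 55.6 and 58.8 CPM in PEO1 against 67.0, 64.4 and 83.8 CPM in PEO4, a rise of 0.31 ± 0.08 (adjusted p = 0.0021) without overlap. Without replicate 3 of untreated PEO4 B it was 0.19 (adjusted p = 0.029, edgeR). SNHG1, the host of SNORD22 and of SNORD25 to SNORD31, was lower in PEO4 B by -0.68 ± 0.08 (adjusted p = 2e-08), at 102, 84.3 and 101 CPM in PEO1 and 54.6, 57.3 and 68.0 CPM in PEO4. In A its difference was -0.12 ± 0.10 (adjusted p = 0.31).

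No library is shared between the A and B comparisons. Of the 28 hosts, 20 had the same sign in both. Past the test in both were 6, of which 5 were higher in PEO4 (SNHG4, SNHG6, SNHG16, SNHG20 and SNHG30) and 1 lower (SNHG9). The test was passed in A alone by 6 and in B alone by 8, and the difference between the tables was not tested.

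**Figure D1:**
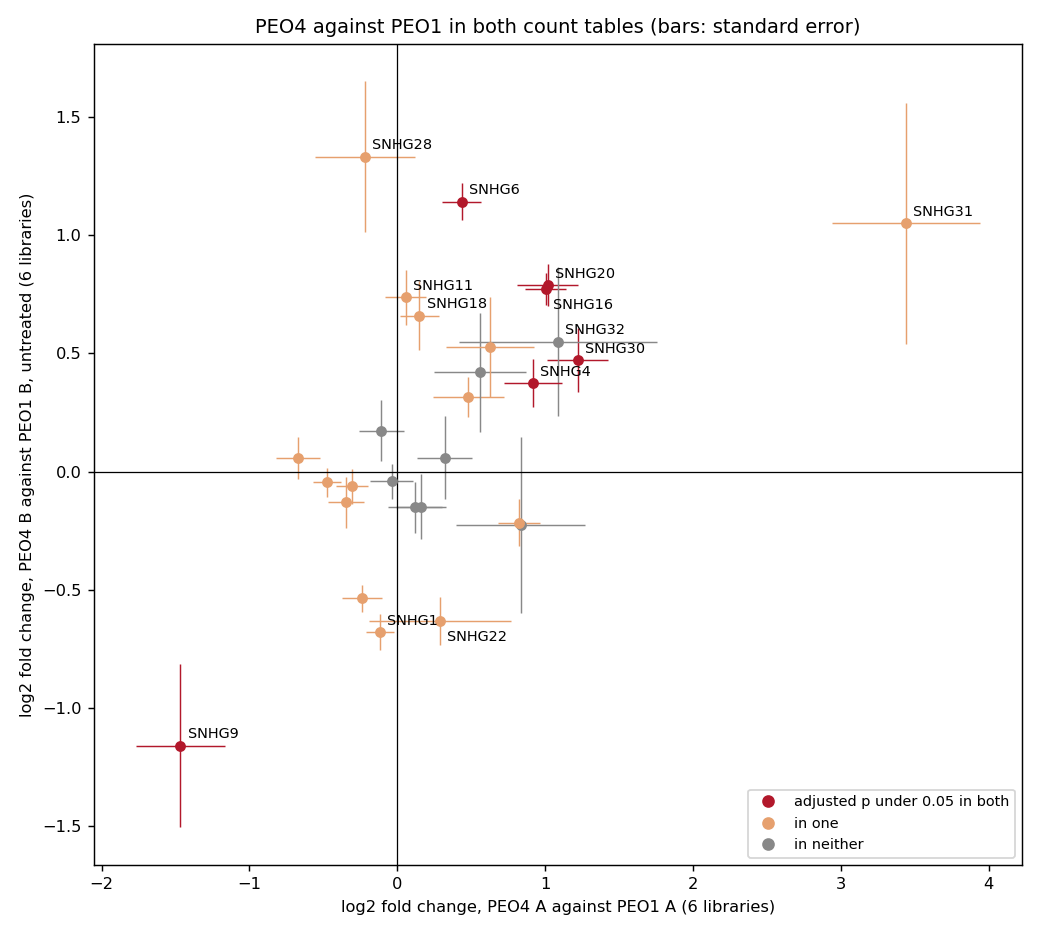
Log2 fold change of PEO4 against PEO1 for 28 snoRNA host genes, in the A libraries (x axis) and in the untreated B libraries (y axis), with bars for the standard error and colour for the number of tables in which the adjusted p is under 0.05. The 6 genes past the test in both tables lie in the upper right, except SNHG9 in the lower left.

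The second question was how each line responds to PDS. In PEO1 B 10 hosts rose within 2 h and stayed up at 6 h, of which SNHG3 lost its call at 6 h under DESeq2. SNHG8, SNHG9 and SNHG25 rose past 2-fold, and SNHG5, SNHG6, SNHG19 and SNHG29 rose by smaller amounts. GAS5 and SNHG1 showed no difference past the test, and SNHG32, SNHG4 and SNHG14 fell.

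At 2 h in PEO1 B, 10 hosts rose and 3 fell, against 26.4% and 26.2% of all genes tested. Past 2-fold 3 rose and 1 fell, which is 10.7% and 3.57% of the 28 hosts against 1.18% and 6.39% of all genes. At 6 h 11 rose and 4 fell, against 27% and 26%, with 3 and 1 past 2-fold against 1.29% and 6.83%. Among the 11, SNHG3 and SNHG15 lost the call under DESeq2 (adjusted p = 0.065 and 0.056, Wald test of DESeq2). They also lost it with library totals and with upper-quartile scaling, and SNHG3 lost its call at 2 h under these scalings. The median of the hosts was 0.07 at 2 h and 0.11 at 6 h, close to the -0.03 of all genes at both times. Under scaling by library totals the medians were -0.07 and -0.03, while the median of all genes moved to -0.17.

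SNHG8, the host of SNORA24, was 9.15, 9.998 and 7.64 CPM in untreated PEO1 B, 23.8, 23.1 and 21.3 CPM at 2 h, and 21.9, 25.1 and 16.2 CPM at 6 h. Every treated library exceeded every untreated one. The log2 fold change was 1.35 ± 0.16 at 2 h (adjusted p = 1.5e-06, edgeR) and 1.23 ± 0.16 at 6 h (adjusted p = 3.8e-06).

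SNHG9 went from 1.87, 0.826 and 1.93 CPM to 4.25, 3.72 and 4.18 CPM at 2 h and 4.10, 4.31 and 3.32 CPM at 6 h, again without overlap. Its log2 fold changes were 1.40 ± 0.25 (adjusted p = 4.6e-05, edgeR) and 1.35 ± 0.25 (adjusted p = 7e-05). SNHG25, the host of SNORD104 and the remaining host past 2-fold, rose by 1.004 ± 0.19 and 1.15 ± 0.19, but 39.1% of its exon bases are shared with SNORA50C.

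SNHG5 measured 151, 154 and 137 CPM untreated, 258, 236 and 227 CPM at 2 h and 228, 246 and 214 CPM at 6 h. It rose by 0.70 ± 0.07 (adjusted p = 2.7e-08, edgeR) and 0.64 ± 0.07 (adjusted p = 1.1e-07). SNHG6 rose by 0.74 ± 0.08 and 0.78 ± 0.08, and SNHG29 by 0.35 ± 0.07 at both times, each without overlap of libraries.

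GAS5 in treated PEO1 B was 61.4, 57.8 and 58.4 CPM at 2 h and 56.5, 59.0 and 51.2 CPM at 6 h, overlapping the untreated libraries. Its log2 fold changes were 0.04 ± 0.08 and -0.05 ± 0.08. SNHG1 was 97.9, 101 and 92.6 CPM at 2 h and 104, 101 and 95.9 CPM at 6 h, with fold changes of 0.02 ± 0.07 and 0.06 ± 0.07. SNHG16, flat at 2 h with -0.07 ± 0.07, fell by -0.17 ± 0.07 at 6 h (adjusted p = 0.037, edgeR), a call that was lost in fits without a filter on low counts or of the compared groups alone and without each of 13 single libraries, and the value was -0.07 without untreated replicate 1.

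**Figure D2:**
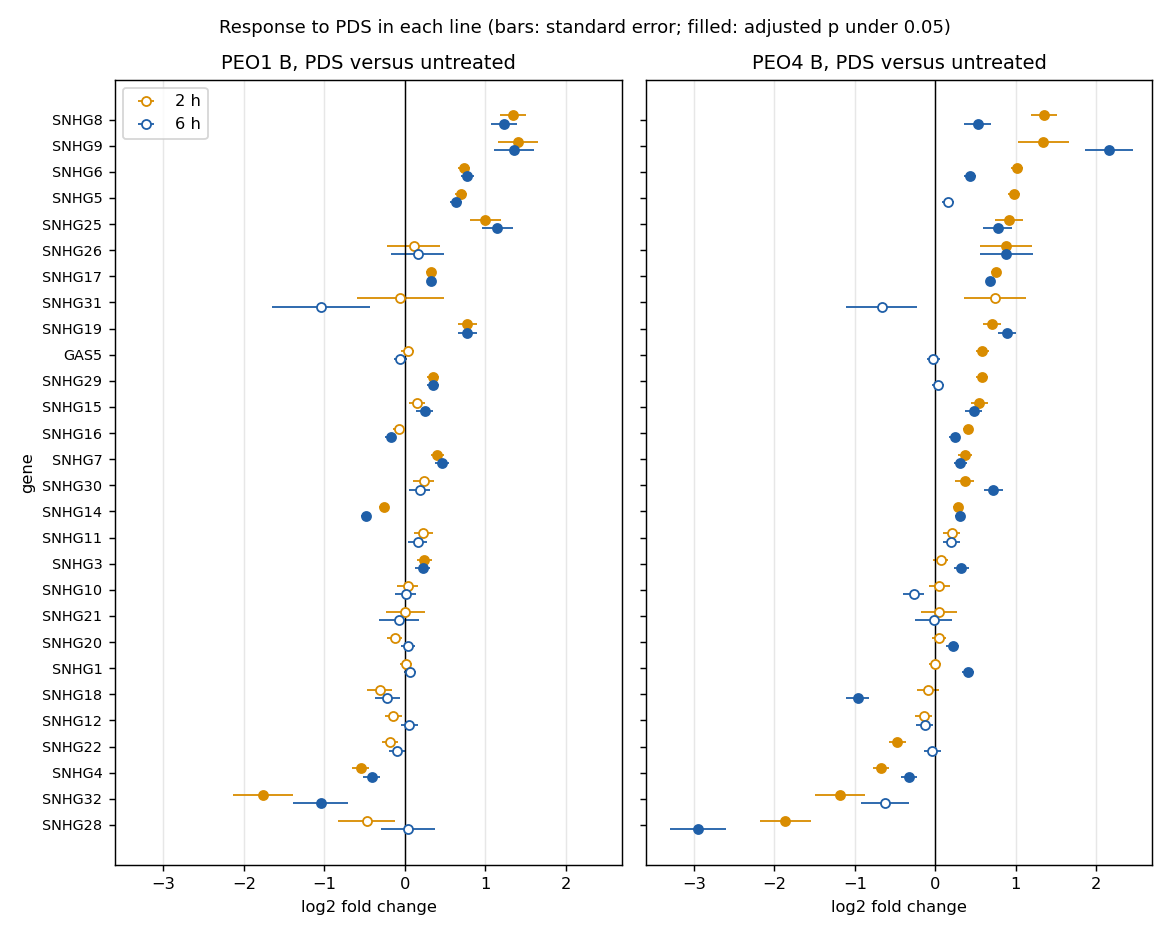
Log2 fold change after PDS against untreated cells for each host, at 2 h (orange) and 6 h (blue), in PEO1 B (left) and PEO4 B (right), with bars for the standard error and filled points for an adjusted p under 0.05. In PEO1 B the 2 times lie close together, while in PEO4 B SNHG8, SNHG6, SNHG5, GAS5 and SNHG29 lie further right at 2 h than at 6 h.

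In PEO4 B SNHG5, SNHG6, SNHG8, SNHG29 and GAS5 rose at 2 h and fell again between 2 and 6 h, with SNHG6 and SNHG8 still above untreated at 6 h. SNHG9 kept rising, SNHG16 rose at both times, SNHG1 passed the test at 6 h and not at 2 h, and SNHG28 fell at both times.

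At 2 h in PEO4 B, 15 hosts rose and 4 fell, against 33.3% and 32% of all genes, and at 6 h 15 rose and 3 fell, against 34.6% and 35.2%. Past 2-fold 3 rose and 2 fell at 2 h, against 6.4% and 11%, and 1 rose and 1 fell at 6 h, against 6.26% and 16.3%. The share of hosts that rose, 53.6% at both times, was above that of all genes, and the share that fell, 14.3% and 10.7%, was below it. The median of the hosts was 0.37 at 2 h, against 0.00 over all genes, and 0.23 at 6 h, against -0.03. With library totals in place of the usual scaling, 9 hosts rose and 6 fell at 6 h. Counts on all 29 genes together were 1080, 1100 and 1222 CPM of library totals in untreated PEO4 B, 1444, 1569 and 1478 at 2 h and 1190, 1188 and 1174 at 6 h.

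GAS5 in PEO4 B was 67.0, 64.4 and 83.8 CPM untreated, 102, 121 and 99.98 CPM at 2 h, and 67.9, 70.9 and 72.5 CPM at 6 h. The 2 h libraries lay above all others, and the 6 h libraries fell within the untreated range. The log2 fold change was 0.58 ± 0.08 at 2 h (adjusted p = 1.4e-06, edgeR) and -0.03 ± 0.08 at 6 h (adjusted p = 0.79).

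SNHG5 in PEO4 B was 143, 127 and 159 CPM untreated, 262, 304 and 279 CPM at 2 h and 162, 160.4 and 155 CPM at 6 h. It rose by 0.98 ± 0.07 at 2 h (adjusted p = 3.8e-11, edgeR), and the 0.15 ± 0.07 at 6 h did not pass (adjusted p = 0.069). SNHG29 followed the same course, at 144, 155 and 186 CPM, then 235, 257 and 232 CPM, then 167, 163 and 166 CPM, with fold changes of 0.58 ± 0.07 and 0.03 ± 0.07.

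SNHG8 went from 8.05, 8.59 and 11.3 CPM to 22.6, 27.9 and 20.9 CPM at 2 h and 13.0, 14.3 and 13.0 CPM at 6 h, 3 levels that did not overlap. The fold changes were 1.35 ± 0.16 (adjusted p = 6.4e-07, edgeR) and 0.53 ± 0.16 (adjusted p = 0.0081), the latter lost with library totals, at 0.36. SNHG6 went from 52.8, 53.0 and 62.4 CPM to 104, 123 and 114 CPM and then to 72.6, 78.4 and 76.3 CPM, with fold changes of 1.02 ± 0.07 and 0.43 ± 0.07.

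SNHG9 in PEO4 B was 0.736, 1.05 and 0.276 CPM untreated, 1.44, 2.09 and 1.68 CPM at 2 h and 3.41, 3.05 and 2.66 CPM at 6 h. It rose by 1.35 ± 0.32 (adjusted p = 0.00073, edgeR) and 2.16 ± 0.30 (adjusted p = 7.4e-07), from 6 to 21 counts per untreated library. SNHG1 was 57.6, 58.9 and 63.3 CPM at 2 h, inside the untreated range, and 81.6, 77.3 and 79.3 CPM at 6 h, above it, with a rise of 0.41 ± 0.08 (adjusted p = 3.7e-05). SNHG16 was 338, 321 and 343 CPM at 2 h and 299.9, 306 and 289 CPM at 6 h, all above the untreated libraries, with rises of 0.41 ± 0.07 and 0.24 ± 0.07. The call of SNHG16 at 6 h was lost with upper-quartile scaling, at 0.13, and with library totals, at 0.08.

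**Figure D3:**
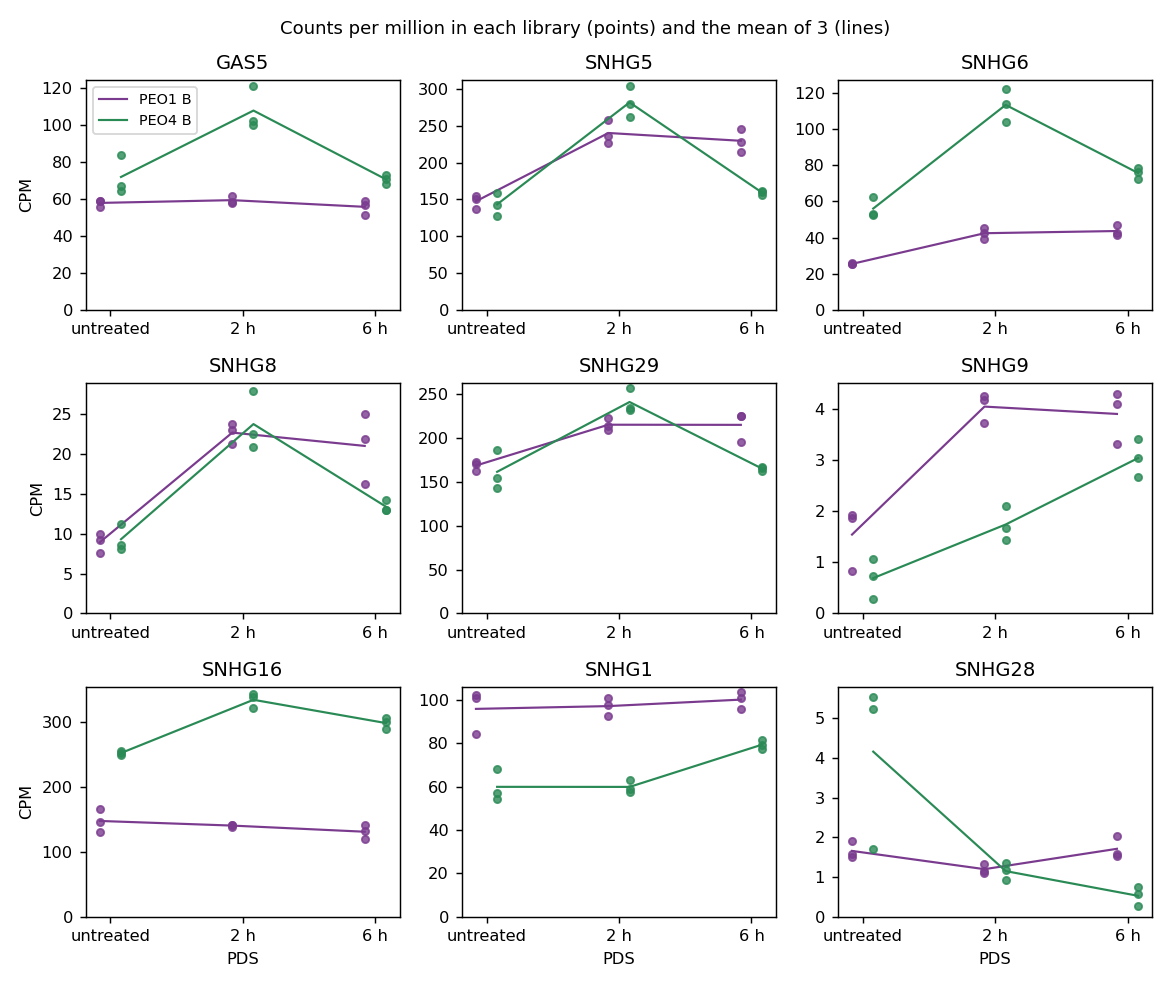
CPM in each library (points) and the mean of 3 libraries (lines) for 9 hosts in PEO1 B (purple) and PEO4 B (green), untreated and after 2 h and 6 h of PDS, with times drawn at equal steps and a linear axis from 0 in each panel. GAS5 in PEO4 B rises from a mean of 71.7 CPM to 108 CPM and returns to 70.4 CPM, while in PEO1 B its means lie between 55.6 and 59.2 CPM.

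Comparing 6 h with 2 h directly, SNHG14 (-0.22 ± 0.06) alone differed in PEO1 B by edgeR, by DESeq2 and at an unadjusted p under 0.05, against 3.96% of all genes higher and 2.98% lower. This call was lost without each of the 6 treated PEO1 B libraries in turn (adjusted p between 0.053 and 0.098, edgeR). SNHG14 did not pass 2-fold, which 0.0705% and 0.0999% of genes did. PEO4 B had 6 higher and 10 lower, against 28.9% and 31.3%, and past 2-fold only 2 that were lower (SNHG28 and SNHG31), against 2.27% of genes higher and 9.71% lower. Among the 10 were GAS5 (-0.61 ± 0.08), SNHG5 (-0.82 ± 0.07), SNHG6 (-0.58 ± 0.07), SNHG8 (-0.83 ± 0.14) and SNHG29 (-0.55 ± 0.07). Among the 6 were SNHG9 (0.81 ± 0.23), SNHG1 (0.41 ± 0.07) and SNHG30 (0.36 ± 0.11).

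Whether the lines respond differently was tested as the response of PEO4 B minus that of PEO1 B. At 2 h the difference was positive for 7 hosts and negative for 1, against 19.3% and 18% of all genes. Only SNHG28, on the negative side, was past 2-fold, against 6.1% and 4.92% of genes. For GAS5 it was 0.55 ± 0.12 (adjusted p = 0.00071, edgeR) and for SNHG16 0.48 ± 0.10 (adjusted p = 0.00032). The values of SNHG5, 0.27 ± 0.10 (adjusted p = 0.043), and SNHG6, 0.28 ± 0.11 (adjusted p = 0.04), lost the call under DESeq2 and without each of 12 of the 18 single libraries, and that of SNHG5 also with the replicate number as a block.

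At 6 h the difference was positive for 5 hosts and negative for 6, against 24.4% and 23% of all genes. Again only SNHG28 was past 2-fold, against 5.42% and 9.34% of genes. It was -0.71 ± 0.23 for SNHG8 (adjusted p = 0.016, edgeR), -0.49 ± 0.10 for SNHG5 (adjusted p = 0.00046), -0.35 ± 0.11 for SNHG6 (adjusted p = 0.009) and -0.32 ± 0.10 for SNHG29 (adjusted p = 0.014). It was 0.34 ± 0.11 for SNHG1 (adjusted p = 0.0095) and 0.41 ± 0.10 for SNHG16 (adjusted p = 0.00091). For GAS5 the value was 0.03 ± 0.12 (adjusted p = 0.88). The calls of SNHG8 and SNHG29 were lost without replicate 3 of untreated PEO4 B, at -0.54 and -0.20.

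**Figure D4:**
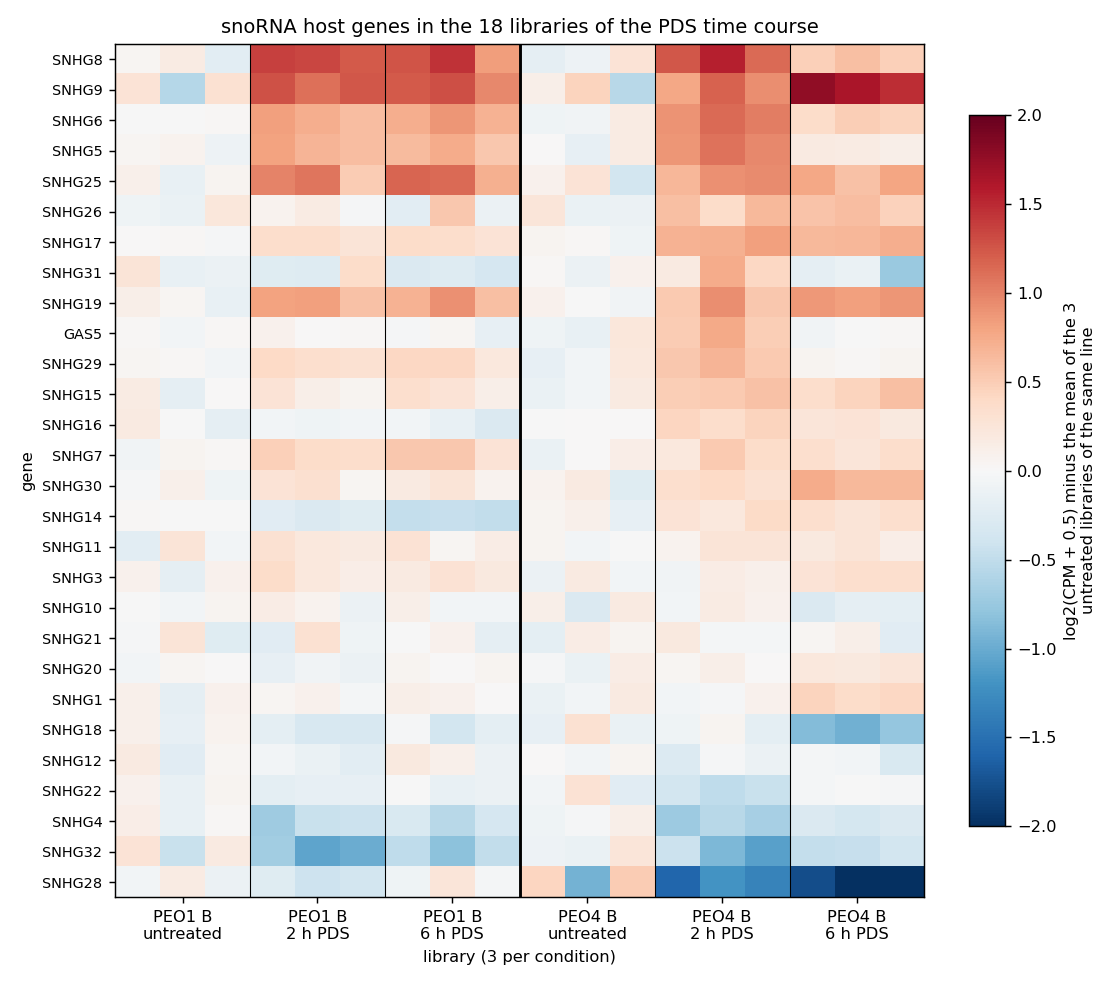
Log2(CPM + 0.5) of 28 hosts in each of the 18 B libraries, minus the mean of the 3 untreated libraries of the same line, with red for higher, blue for lower and the colour scale cut at -2 and 2. Rows are ordered by the response of PEO4 B at 2 h. Among the upper rows, SNHG5, SNHG6 and SNHG8 are red at both times in PEO1 B but paler at 6 h than at 2 h in PEO4 B, while SNHG9 and SNHG19 are not paler there.

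The hosts that fell were few, and the 2 described here, SNHG28 and SNHG32, were low. SNHG4, which shares exon bases with MATR3, alone fell at both times in both lines. SNHG14, which fell in PEO1 B, rose at both times in PEO4 B. SNHG28 has no snoRNA gene inside it in the RefSeq annotation used. It was 5.24, 1.71 and 5.53 CPM in untreated PEO4 B, 0.917, 1.36 and 1.18 CPM at 2 h and 0.739, 0.275 and 0.569 CPM at 6 h. Untreated replicate 2 lay far below its replicates but above every treated library. The fold change was -1.86 ± 0.31 at 2 h (adjusted p = 2.4e-05, edgeR) and -2.95 ± 0.35 at 6 h (adjusted p = 2e-07), and without replicate 2 it was -2.22 and -3.30. The fall between 2 and 6 h lost its call without replicate 2 at 2 h (-0.95, adjusted p = 0.079, edgeR) or without replicate 2 at 6 h (-0.79, adjusted p = 0.094).

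In PEO1 B SNHG28 was 1.58, 1.90 and 1.49 CPM untreated, 1.32, 1.11 and 1.16 CPM at 2 h and 1.52, 2.03 and 1.58 CPM at 6 h. Neither time passed the test, with -0.47 ± 0.35 and 0.04 ± 0.33. The difference in response was -1.39 ± 0.47 at 2 h (adjusted p = 0.025, edgeR) and -2.98 ± 0.49 at 6 h (adjusted p = 4.1e-05). The value at 2 h lost its call without each of 5 single libraries.

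SNHG32, the host of SNORD48 and SNORD52, was 1.34, 0.620 and 1.23 CPM in untreated PEO1 B, 0.441, 0.233 and 0.268 CPM at 2 h and 0.570, 0.364 and 0.587 CPM at 6 h. It fell by -1.76 ± 0.37 (adjusted p = 0.00034, edgeR) and -1.04 ± 0.34 (adjusted p = 0.013) without overlap, on 9 to 28 counts per library. The call at 6 h was lost without untreated replicate 1 or 3 or without 6 h replicate 2, at -0.91 to -0.84 (adjusted p between 0.064 and 0.079, edgeR). In PEO4 B it was 1.39, 1.36 and 1.89 CPM untreated, 0.9999, 0.594 and 0.456 CPM at 2 h and 0.954, 0.976 and 1.08 CPM at 6 h, a fall of -1.18 ± 0.31 at 2 h (adjusted p = 0.0017). The -0.62 ± 0.30 at 6 h did not pass (adjusted p = 0.064).

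The letters CTTTT near the start did not sort the hosts cleanly. They were found in only 24.1% of ribosomal protein promoters, and GAS5 is among the hosts without them. The split therefore cannot tell hosts with a pyrimidine tract from hosts without one. Of the 7 with CTTTT near the start, 5 rose and 1 fell in PEO4 B at 2 h, with a median of 0.58, and of the 17 tested without it 6 rose and 3 fell, with a median of 0.07. In PEO1 B at 2 h, 3 of 7 rose and 1 fell (median 0.11), and 4 of 17 rose and 2 fell (median 0.02). SNHG6, SNHG9, SNHG15 and SNHG25, whose promoter sequences were not found, are in neither group. All of them rose in PEO4 B at 2 h, and all but SNHG15 rose in PEO1 B at 2 h. At 6 h in PEO4 B the medians were 0.15 and 0.20. SNHG32, with CTTTT at its first base, fell in both lines at 2 h, and SNHG5 and SNHG19, with the same placement, rose in both.

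By their medians the snoRNA genes inside the hosts lay below them at 2 h but close to them at 6 h in PEO4 B. Of 59 such genes outside SNHG14, 46 were tested in the B table, and reads on them in poly(A)-enriched RNA come from precursors, introns or shared exon bases rather than from mature snoRNAs alone. In PEO1 B at 2 h, 1 rose and 21 fell, with a median of -0.62, while the median of their hosts, counted once per snoRNA, was 0.04. Of the 46, 41 lay below their host. In PEO4 B at 2 h 4 rose and 11 fell, with a median of -0.26 against 0.56 for their hosts, and at 6 h 3 rose and 3 fell, with 0.17 against 0.18.

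The 11 snoRNA genes inside GAS5 held 47.9 ± 2.17 CPM together in untreated PEO1 B (SD, n = 3), 29.4 ± 1.40 CPM at 2 h and 28.4 ± 1.64 CPM at 6 h, and 7 of the 11 fell at 2 h, while GAS5 itself showed no change past the test. In PEO4 B they held 54.5 ± 6.54, 48.8 ± 2.73 and 39.4 ± 0.876 CPM, and 6 of the 11 fell at 2 h, when GAS5 rose. Inside SNHG1, 7 of 8 fell in PEO1 B at 2 h, with values between -1.49 and -0.35. Over all their GENCODE transcripts, the exons of GAS5 and SNHG1 cover 4932 and 3976 bases, which is most of each locus. Reads on the snoRNA genes may therefore count to the host as well, and the values of host and snoRNA genes may not be separate. SNORD104 in SNHG25 rose in both lines, by 1.25 ± 0.17 in PEO1 B and 1.36 ± 0.15 in PEO4 B at 2 h. The rRNA share was lower in all treated B libraries. Among them were those of PEO4 B at 6 h, where 3 of the 46 snoRNA genes rose and 3 fell. The part of the rRNA share in the falls of snoRNA genes was not tested.

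Other genes of this system were counted in the same way. Of 71 ribosomal protein genes tested, 64 rose in PEO1 B at 2 h and 63 at 6 h, with medians of 0.60 at both times, and 69 and 64 rose in PEO4 B, with medians of 0.85 and 0.55. Between 2 and 6 h 65 of the 71 fell in PEO4 B with a median of -0.34. RPL38 rose by 1.72 ± 0.06 at 2 h and 1.45 ± 0.06 at 6 h in PEO4 B, and RPS29 by 1.74 ± 0.07 and 1.29 ± 0.07. The difference in response at 2 h was positive past the test for 38 of the 71.

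The 34 protein-coding hosts of snoRNAs rose in 29 and 27 cases in PEO1 B and in 27 and 29 cases in PEO4 B, at 2 h and 6 h. Their medians were 0.44 and 0.43 in PEO1 B and 0.54 and 0.45 in PEO4 B. All 8 genes of the core snoRNA-protein particle rose at both times in both lines. FBL, the methyltransferase of box C/D particles, rose by 1.30 ± 0.06 and 1.31 ± 0.06 in PEO4 B at 2 h and 6 h, and DKC1, the pseudouridine synthase of box H/ACA particles and itself a host gene, by 0.54 ± 0.06 and 1.14 ± 0.06. Of 7 assembly factors tested, 5 and 6 rose in PEO1 B at 2 h and 6 h (medians 0.36 and 0.42), and 4 and 6 rose in PEO4 B (medians 0.19 and 0.68). At 6 h in PEO4 B ZNHIT6 rose by 1.29 ± 0.07 and NUFIP1 by 1.06 ± 0.09.

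Since host RNAs are decay substrates, factors and targets of NMD were listed as well. Of 14 NMD factors, 8 rose and 2 fell in PEO1 B at 2 h, 9 rose and 2 fell at 6 h, and in PEO4 B 7 rose and 5 fell at 2 h and 9 rose and 1 fell at 6 h. UPF3B rose by 1.03 ± 0.09 and MAGOH by 0.90 ± 0.07 in PEO4 B at 6 h. Of 10 mRNAs known as NMD targets, 6 rose and the other 4 did not pass in PEO4 B at 2 h, and 4 rose and 4 fell at 6 h, with UPP1 at 2.69 ± 0.11 and CARS1 at -1.24 ± 0.22. In PEO1 B, 6 of these targets rose and 1 fell at 2 h, and 4 rose and 1 fell at 6 h. Rises and falls were equally many only in PEO4 B at 6 h. The part of NMD in the host responses was not tested.

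Among 3 tested lncRNA hosts outside the SNHG series, 2 rose in each line at each time. DANCR rose by 0.36 ± 0.09 in PEO4 B at 6 h, after falling by -0.29 ± 0.09 at 2 h, and EPB41L4A-AS1 rose by 0.38 ± 0.13 at 2 h and fell by -0.88 ± 0.14 at 6 h. The remaining host rose at both times in PEO4 B, past 2-fold at 2 h, and fell between 2 and 6 h. Of 9 lncRNAs that host no snoRNA in the list, 4 rose and 3 fell in PEO4 B at 2 h, with a median of 0.04, and 2 rose and 3 fell at 6 h. CYTOR rose by 2.31 ± 0.16 and 2.11 ± 0.16 and NEAT1 fell by -1.45 ± 0.18 and -0.76 ± 0.18.

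**Figure D5:**
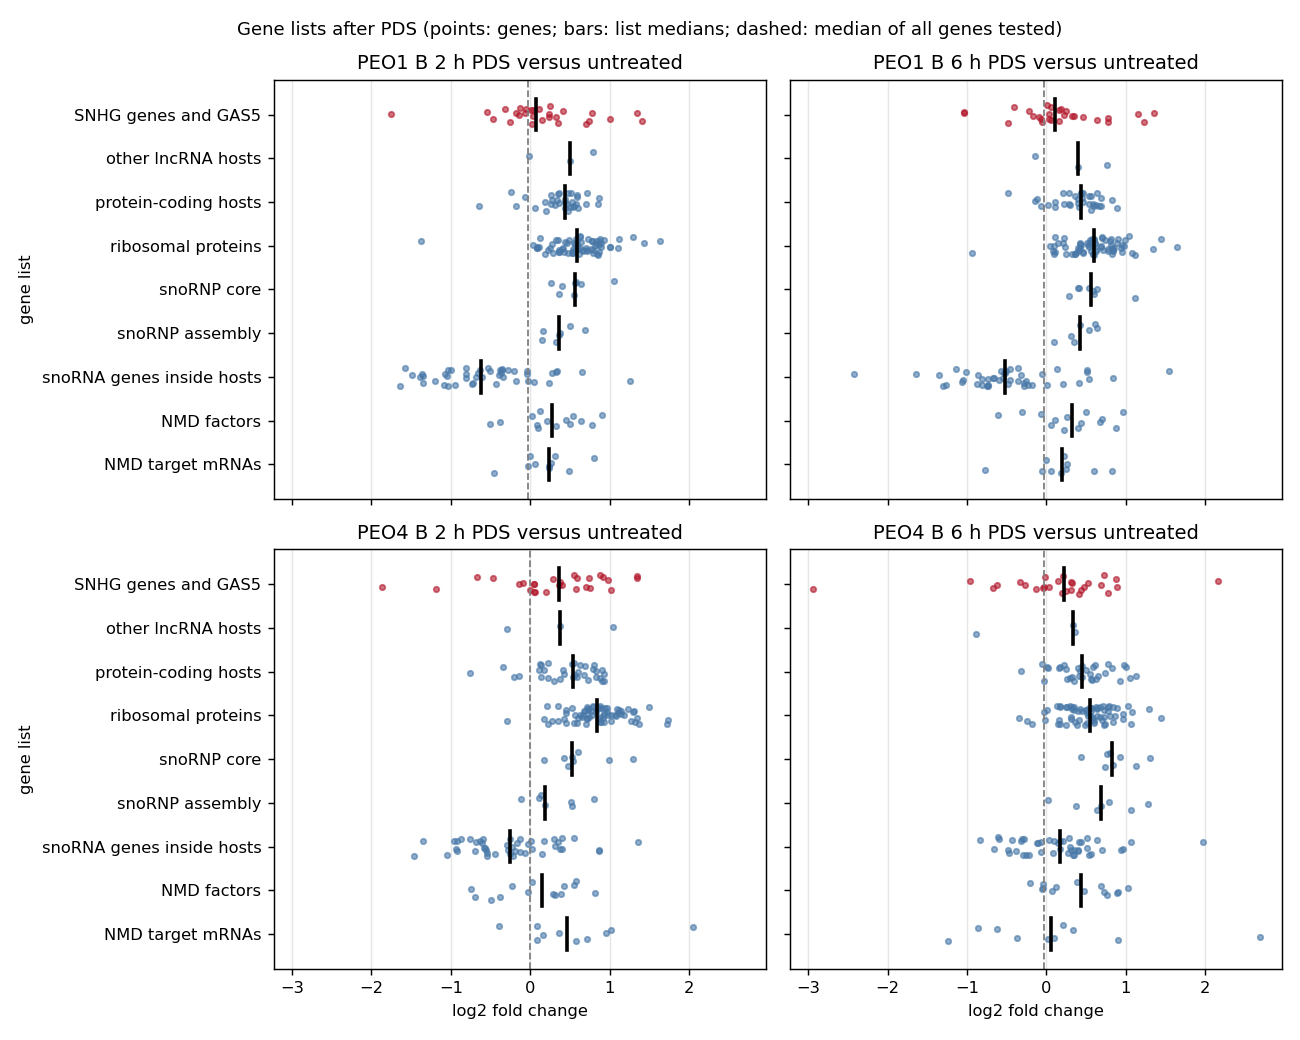
Log2 fold change after PDS for each gene (points) of 9 lists, with the list median as a black bar and the median of all genes tested as a dashed line, in PEO1 B (top) and PEO4 B (bottom) at 2 h (left) and 6 h (right). Ribosomal protein genes lie to the right of the dashed line in all 4 panels with medians of 0.55 to 0.85, while the snoRNA genes inside the hosts lie to its left in PEO1 B, with medians of -0.62 and -0.53.

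Transcript length moved weakly with the response over all genes. In PEO4 B at 2 h the median log2 fold change was 0.26 for 1076 genes whose canonical GENCODE transcript is at least 500 and under 1000 bases long and -0.12 for 5752 genes of 4000 bases or more, and at 6 h the values were 0.01 and -0.05. In PEO1 B at 2 h they were 0.17 and -0.09. For 705 genes under 500 bases, many of them small RNA genes, the medians were -0.37 and -0.47 in PEO4 B and PEO1 B at 2 h. The canonical transcripts of SNHG5 and SNHG6 have 1316 and 1821 bases. For genes of 1000 up to 2000 bases the medians were 0.19 and 0.11 in PEO4 B and PEO1 B at 2 h. Among the other hosts that rose in both lines at 2 h, SNHG17 (1238 bases) and SNHG7 (2357) have lengths at which the medians were positive. SNHG9 (339), SNHG19 (394), SNHG25 (311), SNHG29 (443) and SNHG8 (6166) have lengths at which they were negative. The part of length in the rises of the hosts was not tested.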

How the data were processed

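RNA of 24 libraries was column-purified, poly(A)-enriched and sequenced as paired ends. Per the labels and the study's methods, the authors used FastQC, fastp, STAR on hg38 and featureCounts, and deposited raw counts per gene. The annotation and the strand and overlap settings are not given in the sources used here. The members and gene lists were chosen with earlier results of these data known.

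Counts were tested with edgeR 4.0.16 in R 4.3.3 (robust quasi-likelihood, TMM, filterByExpr with a minimum count of 10 and a total of 15, all libraries of a table in 1 fit). This left 15882 and 17020 genes, with 4 and 12 residual degrees of freedom. Past 2-fold means a log2 fold change above 1 or below -1 that also passed the adjusted p of 0.05. CPM are TMM-scaled unless called CPM of library totals or used for sums over rRNA, marker and microRNA genes. Lines without readable counts were left out (2 in A, 1 in B). Named are GAS5, SNHG1, the 2 hosts past 2-fold with the largest rise and fall per comparison at a mean of at least 1 CPM and without overlap of libraries (overlap ignored for differences in response), the 3 hosts of highest CPM in each table, and the 2 genes per list with the largest absolute change in PEO4 B at 6 h. Others are named after their values were seen. On simulated data with log2 changes of 1.5, 200 of 200 changed genes were recovered both for PEO4 A against PEO1 A (15710 genes) and for PEO4 B at 6 h against untreated (16612 genes, 1 false call). The changed genes were drawn from genes with higher counts, and all genes were given the same spread. The recovery therefore does not cover low hosts such as SNHG9, SNHG31 and SNHG32, or changes smaller than 1.5. Replicate numbers did not pair the libraries: 0 of 15 pairs of B conditions had every same-numbered correlation over 0.1. Transcript lengths were found for 94.0% of tested genes. Library totals, given in the report, limit the precision of low genes. Other scalings and filters, DESeq2 1.42.0, fits of the compared groups alone, a replicate term and left-out libraries were tried. One marker gene is not reported here.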

Additional observations from a re-analysis of the deposited data

Results flagged for a closer look

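The responses of 19 pairs of host and time differed between the lines (response of PEO4 B minus that of PEO1 B, log2 scale, adjusted p under 0.05 by edgeR). At 2 h the differences were 0.55 for GAS5, 0.27 for SNHG5, 0.28 for SNHG6, 0.54 for SNHG14, 0.40 for SNHG15, 0.48 for SNHG16, 0.43 for SNHG17 and -1.39 for SNHG28. At 6 h they were 0.34 for SNHG1, -0.49 for SNHG5, -0.35 for SNHG6, -0.71 for SNHG8, 0.79 for SNHG14, 0.41 for SNHG16, 0.35 for SNHG17, -0.75 for SNHG18, -2.98 for SNHG28, -0.32 for SNHG29 and 0.53 for SNHG30. At 2 h the calls of SNHG5 and SNHG6 were each lost without 12 of the 18 single libraries and by DESeq2, that of SNHG15 without 7 (0.31 to 0.39, adjusted p between 0.060 and 0.12 by edgeR) and that of SNHG28 without 5. At 6 h the call of SNHG30 was lost without PEO1 B untreated replicate 2 (0.46) or PEO4 B untreated replicate 3 (0.41), and those of SNHG8 and SNHG29 without the latter (-0.54 and -0.20). SNHG14 shares exon bases with SNRPN and UBE3A, so its counts are uncertain.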

How the results depend on the processing

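No host that passed the test in a comparison reversed its direction under any alternative or left-out library. Without a fold threshold the counts of hosts higher and lower became 7 and 5 in the A lines. In the untreated B lines they became 10 and 4. In PEO1 B they became 10 and 3 (2 h) and 11 and 4 (6 h). In PEO4 B they became 15 and 4 (2 h) and 15 and 3 (6 h). Between the times 1 host was lower in PEO1 B, and 6 were higher and 10 lower in PEO4 B. The difference in response (PEO4 B minus PEO1 B) was positive for 7 hosts at 2 h. At 6 h it was positive for 5 and negative for 6. Library totals shifted the median of all genes by -0.17 (both times in PEO1 B), -0.13 and -0.19 (2 h and 6 h in PEO4 B). They gave 8 hosts lower and a median of -0.072 in PEO1 B at 2 h, a median of -0.034 there at 6 h, and in PEO4 B a median of 0.24 at 2 h and at 6 h 9 higher, 6 lower, 2 lower past 2-fold and a median of 0.068. Upper-quartile scaling gave 3 lower in the A lines, 5 lower in PEO1 B at 2 h and, in PEO4 B at 6 h, 6 lower, 2 past 2-fold and a median of 0.12. At least 1 CPM in 3 libraries gave 5 lower in PEO4 B at 6 h and 1 lower past 2-fold between its times. Fits of the compared groups alone gave 4 hosts with a positive difference in response at 2 h. The causes of these shifts were not tested.

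The replicate block left every count within 1.5 times. With it SNHG3 in PEO1 B at 6 h (adjusted p = 0.060, edgeR) and the difference of SNHG5 at 2 h (0.054) lost their calls, but 0 of 15 pairs of B conditions met the pairing criterion, so the numbers are only names.

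Leaving out single libraries, hosts higher and lower ranged, in order, past 2-fold, by adjusted p and in median as follows. In the A lines they were 2 to 5 and 1 to 1, 6 to 10 and 3 to 8, and 0.12 to 0.29, the 2 without PEO4 A replicate 1. In the untreated B lines they were 2 to 3 and 0 to 1, 9 to 11 and 4 to 5, and 0.08 to 0.18. In PEO1 B at 2 h they were 2 to 3 and 1 to 1, 9 to 10 and 3 to 3, and 0.05 to 0.16, at 6 h 3 to 3 and 0 to 1, 9 to 11 and 2 to 4, and 0.07 to 0.17, and between the times 0 to 0 and 0 to 0, 0 to 0 and 0 to 1, and -0.02 to 0.07. In PEO4 B at 2 h they were 2 to 5 and 1 to 2, 13 to 16 and 4 to 4, and 0.33 to 0.39, at 6 h 1 to 2 and 1 to 2, 13 to 16 and 3 to 4, and 0.21 to 0.26, and between the times 0 to 0 and 1 to 2, 6 to 7 and 7 to 10, and -0.08 to -0.03. For the difference in response they were 0 to 0 and 0 to 1, 4 to 8 and 0 to 1, and 0.000795 to 0.19 at 2 h, and 0 to 1 and 1 to 1, 4 to 6 and 4 to 6, and 0.03 to 0.11 at 6 h. Depth limits SNHG9, SNHG28, SNHG31 and SNHG32, with at most 151 counts per library.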
